A study of Spinacia oleracea with 12 samples.

Results

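Root-predominant genes of spinach were defined by level alone, as genes abundant in the roots of both genotypes and far lower in their leaves. A gene was chosen by its mean FPKM, a fragment count divided by gene length and by the total of the library. The mean had to be at least 50 FPKM in the roots of PI175311 and in the roots of Bloomsdale, and at least 50 times the leaf mean within each genotype. Of the 25495 genes of the table, 110 met this rule. The values that chose them were the leaf and root levels, so the difference between leaf and root is described here without a test, and tests are given only for the difference between the genotypes. The rule did not use that difference, but it set a minimum for each genotype's root mean and ratio, and so bears on which differences can appear.

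PI175311 is a spinach accession labelled high in oxalate, and Bloomsdale is a cultivar labelled low in oxalate. Leaf and root RNA came from 6-week-old plants, with 3 libraries for each genotype and tissue, and no treatment separated the groups. All plants shared 1 growth chamber regime, with 12 h of light at 23 °C, and the labels give a nitrogen level of 200 ppm for all 12 libraries, while the methods of the study name a nitrogen-free nutrient solution. The labels and methods speak of 3 independent plants, and each genotype is a single accession or cultivar, so a difference between the groups is a difference between these 2 seed sources.

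A root takes up water and mineral ions, anchors the plant and does not photosynthesise. Root-enriched transcripts of land plants typically include those for membrane transport, for cell wall peroxidases, for the lignin and suberin barriers around the vascular tissue, and for defence against soil organisms. The gene IDs of the table are not paired with names, positions or functions in the files, and 0 of them were found among the 39719 genes of the RefSeq table used here. The 110 genes are therefore described by level and behaviour, with no function, and their protein and promoter sequences were not analysed here. None of the 15 gene IDs printed in the text of the study, which belong to oxalate metabolism and related pathways, was among the 110.

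The fragments assigned to genes totalled 18451262 to 25245734 per library. The 110 genes held 7.17% to 10.4% of the summed FPKM in PI175311 roots and 9.07% to 13.2% in Bloomsdale roots. In leaves they held 120 to 130 ppm in PI175311 and 63.3 to 194 ppm in Bloomsdale. As a measure of the other tissue, the 137 leaf-predominant genes given by the mirrored rule held 11.7% to 30.1% of the summed FPKM in leaves and 278 to 623 ppm in 5 of the 6 roots. The remaining root library, PI175311 root 1, held 2268 ppm of them, the highest level of leaf-predominant transcripts in a root. These are bulk tissues, in which fewer cells of a type and less RNA per cell cannot be told apart.

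Across the 6 roots, the mean level of the 110 genes ran from 53.9 to 17400 FPKM, with a median of 206. There were 13 genes at 1000 FPKM or more, 82 between 100 and 1000 FPKM, and 15 under 100 FPKM. They included 3 of the 10 genes with the highest root means in the whole table and 18 of the highest 100. In each of the 110 genes, every root library lay above every leaf library, and 70 genes stood at 50 FPKM or more in all 6 roots.

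**Figure D1:**
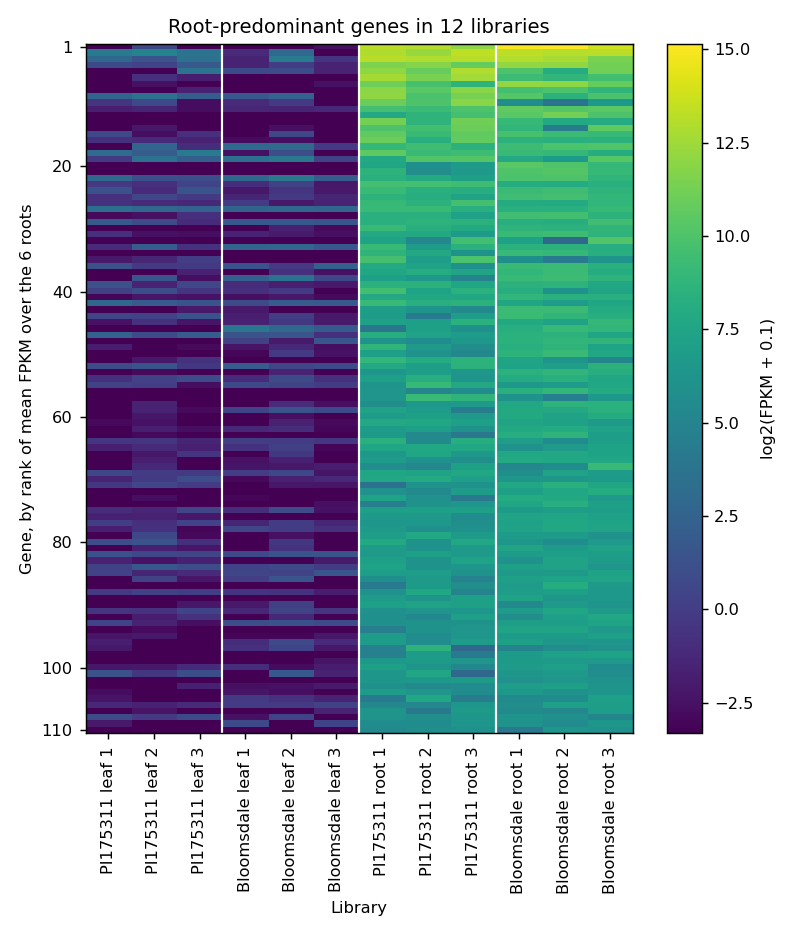
Level of each of the 110 root-predominant genes in the 12 libraries, as log2(FPKM + 0.1), with 1 row per gene ordered by mean root FPKM and white lines between the 4 groups. The 6 root columns are bright in all rows, the 6 leaf columns are dark, and the root columns differ among themselves within a genotype.

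The most abundant was Spo05786, a gene of 533 bases that ranked first of all genes in the table by root mean. Its root values were 9477, 8170.5 and 4128 FPKM in PI175311 and 32444, 36121 and 14057 FPKM in Bloomsdale, so that all 3 Bloomsdale roots exceeded all 3 PI175311 roots. In leaves it had 17 fragments in PI175311 leaf 2, 1 fragment in Bloomsdale leaf 3 and 0 in the other 4 libraries. This single gene supplied 22.1% to 38.7% of the summed FPKM of the 110 genes in Bloomsdale roots and 5.41% to 15.4% in PI175311 roots. With Spo05786 set aside, the other genes held 6.07% to 9.19% of all FPKM in PI175311 roots and 7.07% to 8.58% in Bloomsdale roots, ranges that overlap.

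Spo02033 was second, with 7674, 5003 and 10584 FPKM in PI175311 roots and 9922, 8608 and 9480 FPKM in Bloomsdale roots. Its Bloomsdale values fell within the PI175311 range. Spo23290 had 8914, 7748.5 and 9258 FPKM in PI175311 roots and 8219, 6703 and 2809 FPKM in Bloomsdale roots, where root 3 stood low. Spo13607 had 2978, 3485 and 1787 FPKM in PI175311 and 4592, 4646 and 2422 FPKM in Bloomsdale, with overlapping groups. In these 3 genes neither genotype stood apart from the other.

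Spo26961 varied more between plants. It had 4034, 1811 and 7917 FPKM in PI175311 roots and 1032, 270 (269.98) and 2359 FPKM in Bloomsdale roots, with replicate 2 lowest and replicate 3 highest in both genotypes. Spo13823, the sixth, had 6503, 2793 and 6103 FPKM in PI175311 roots against 655, 456 and 748 FPKM in Bloomsdale roots, and here the groups were far apart. Together these 6 genes made up 49.4% to 60.9% of the FPKM of the 110 genes in every root library.

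The contrast with leaf was often too steep for the leaf value to be measured. In leaf, 14 of the 110 genes had 0 fragments in all 6 libraries, 56 stayed under 1 FPKM in all 6, and 39 were above 0 in all 6. The ratio of root to leaf mean had a median of 911 in PI175311 and 1021 in Bloomsdale, where a leaf group with 0 fragments was set to a floor of 3 fragments over its 3 libraries. The ratio exceeded 1000 in 54 genes in PI175311, 16 of them lower bounds, and in 55 genes in Bloomsdale, 20 of them lower bounds, and 39 genes exceeded it in both. Among the genes at 0 in every leaf, Spo12239 was at least 29614-fold higher in PI175311 root than leaf, and Spo12242 at least 21299-fold higher in Bloomsdale root than leaf. These floors cover counting error only.

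The edges of the rule were not gaps in the data. The lowest root means inside it were 50.1 FPKM for Spo21124 and 50.6 FPKM for Spo28040, in PI175311, and the nearest genes outside on level were Spo14690 at 48.6 FPKM and Spo18624 at 48.3 FPKM. The lowest ratios inside were 50.0013 for Spo03704 and 50.7 for Spo25997, and the nearest outside were 48.6 for Spo11414 and 47.3 for Spo08689. Applied to one genotype at a time, the rule was met by 216 genes in PI175311 and 218 in Bloomsdale, so that the 110 shared genes were about as many as the 106 that met it only in PI175311 or the 108 that met it only in Bloomsdale. Of those 106, 73 had a Bloomsdale root mean under 50 FPKM and 33 failed on the ratio alone. Of the 108, 92 had a PI175311 root mean under 50 FPKM and 16 failed on the ratio alone.

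The choice was repeated without 1 replicate number at a time, and the chosen genes were then checked in the 4 libraries left out. With replicate 1 left out of all 4 groups, 103 genes were chosen, 98 of them among the 110, and in the 4 libraries left out all 103 were higher in root than leaf in both genotypes. The ratio of 50 was reached there in both genotypes by 92 of the 103, and ratio and level together by 80 (77.7%). With replicate 2 left out, 94 of 107 genes reached the ratio in both genotypes and 73 (68.2%) reached ratio and level. With replicate 3 left out, the numbers were 94 of 108 and 72 (66.7%). A ratio of at least 10 was reached in both genotypes by 103, 106 and 106 genes. The root excess thus recurred in nearly every gene in single libraries, while the level in a single root often fell short of 50 FPKM.

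Most of the 110 genes left at most low traces in leaf. In each leaf library 61 to 79 of the genes were above 0 and 17 to 35 reached 1 FPKM. Bloomsdale leaf 2 had the most of them at 1 FPKM, and Bloomsdale leaf 3 the fewest. Across the 110 genes, the leaf level in a library and the mean root level of its genotype had a Pearson's r of 0.31 to 0.42 in the 3 PI175311 leaves and 0.044 to 0.16 in the 3 Bloomsdale leaves on the scale of log2(FPKM + 0.1). Genes share the library and are not replicates, and these values are descriptions. The rule chose the genes on these same leaf and root levels. Its ratio limits the leaf mean at a given root mean, and so bears on these correlations. The trace of the most abundant root gene varied between leaves. In PI175311 leaf 2 Spo05786 stood at 207 ppm of its root level, where the median of the 110 genes was 792 ppm of theirs. In Bloomsdale leaf 2 it had 0 fragments, where a floor of 3 fragments in that library is 10 ppm of its root level, whereas the median of the 110 genes there was 1137 ppm of the root level. The part of root RNA in these leaf traces was not tested.

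Only 10 genes exceeded 10 FPKM in any leaf library. The highest leaf means in PI175311 were those of Spo02033, with 20.1, 31.7 and 12.9 FPKM, and Spo04748, with 8.79, 4.05 and 19.2 FPKM. In Bloomsdale leaves Spo02033 had 0.384, 7.97 and 0 FPKM and Spo04748 had 0.0768, 1.92 and 0 FPKM. The 3 PI175311 values of both genes lay above the 3 Bloomsdale values. Both were picked for their high PI175311 leaf means, so this order carries no weight. Groups did not overlap in 33.2% of all genes tested in leaf. The limma test of leaf, given further on, called neither Spo02033 (adjusted p = 0.127) nor Spo04748 (adjusted p = 0.0594). The highest leaf means in Bloomsdale were those of Spo02667, with 10.7, 17.1 and 1.17 FPKM, and Spo07639, with 7.63, 16.1 and 3.85 FPKM. In PI175311 leaves Spo02667 had 0.785, 12.3 and 4.43 FPKM and Spo07639 had 6.92, 2.12 and 2.11 FPKM. Bloomsdale leaf 2 was the highest of the 6 leaves for both.

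The genotypes were then compared in root, on log2(FPKM + 0.1) with limma, a linear model fitted to every gene that reached 1 FPKM in 3 or more of the 6 roots. All 110 genes were among the 18197 tested, and p-values were adjusted over all of those by the Benjamini-Hochberg method. At an adjusted p under 0.05, 5 of the 110 genes were higher and 13 lower in PI175311 roots. These are 4.55% and 11.8% of the 110, where 2.93% of all tested genes were called higher and 9.70% lower. Of the other 1854 genes with a mean of at least 50 FPKM in both root groups, 1.67% were called higher and 6.53% lower. The differences between these shares were not tested, and the rule itself, by asking for 50 FPKM in both genotypes, kept out genes that are off in one of them. The 3 libraries of each genotype did not overlap in 49 of the 110 genes (44.5%), with PI175311 above in 12 and below in 37, and in 41.1% of all tested genes. The share of lower calls among all tested genes depended on the scaling. In the 110 genes, lower calls outnumbered higher calls with each scaling given here. With median-of-ratios scaling 6 of the 110 were called higher and 10 lower, against 3.73% and 4.20% of all tested genes. With quantile normalization the numbers were 4 and 12, against 4.04% and 4.22%.

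These fits have no pairing. The labels and methods give none by replicate number, but same-numbered PI175311 and Bloomsdale roots deviated together, as described further on. A fit with a block is therefore given as an alternative. With replicate number as a block, 12 of the 110 genes (10.9%) were called higher and 26 (23.6%) lower in PI175311, against 3.35% and 11.3% of all tested genes, and 4 of the 5 higher and all 13 lower genes were kept. The calls depended on the Bloomsdale roots, in the 110 genes as in all tested genes. Without Bloomsdale root 1 there were 0 higher and 1 lower gene, and the same numbers without Bloomsdale root 2, where limma at an unadjusted p under 0.05 had 11 and 10 higher and 34 and 32 lower genes. Among all tested genes the called shares were then 0.567% and 0.549% higher and 0.306% and 0.238% lower. Without Bloomsdale root 3 there were 4 higher and 6 lower genes, against 1.84% and 2.39% of all tested genes. Without PI175311 root 2 there were 9 and 16, against 2.27% and 9.92% of all tested genes. Without PI175311 root 1, the root with most leaf-predominant transcript, 4 genes were higher and 11 lower, against 0.683% and 4.54% of all tested genes.

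The 110 genes had a median log2 fold change, PI175311 minus Bloomsdale, of -0.52 (quartiles -1.45 and 0.51). A value below 0 was found in 74 of them (67.3%), much as in all tested genes (67.9%) and in the other 1854 abundant genes (69.5%). The median of all tested genes was -0.23, a shift that median-of-ratios scaling brought to 0.01, when the median of the 110 became -0.29. The other 1854 abundant genes had a median of -0.20. The size of the change, whatever its sign, had a median of 1.04 on the log2 scale in the 110 genes, 0.35 in those 1854 genes and 0.41 in all tested genes. The SD within a genotype, given further on, was also larger in the 110 genes than in those 1854. Such a spread widens differences between means of 3 libraries, and its part in this size was not tested. In mean FPKM, 51 of the 110 genes differed by less than 2-fold between the genotypes, 20 were at least 2-fold higher and 39 at least 2-fold lower in PI175311. Across genes, the mean log2 levels of the genotypes had a Pearson's r of 0.63 in the 110 genes and 0.83 in the other 1854, which are descriptions over genes of the same libraries.

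**Figure D2:**
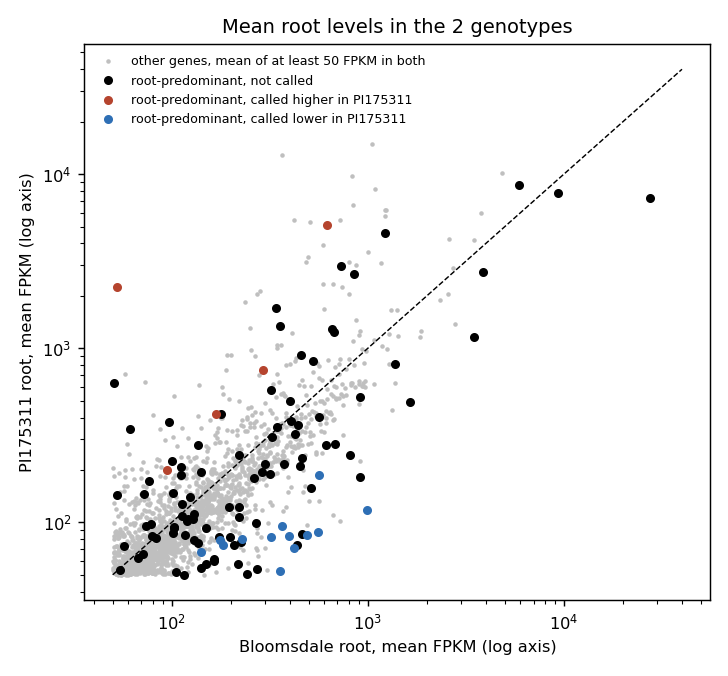
Mean root FPKM in PI175311 against Bloomsdale on log axes, with 1 point per gene and the dashed line at equal levels. The 110 root-predominant genes are the large points, of which 5 were called higher and 13 lower in PI175311, and they scatter more widely around the line than the 1854 other genes of at least 50 FPKM in both groups, shown in grey. The means also carry the spread between libraries of a genotype, which was wider in the 110 genes.

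The largest called increase in PI175311 roots was that of Spo21771. It had 1935, 999.7 and 3794 FPKM in PI175311 and 52.1, 14.0 and 91.6 FPKM in Bloomsdale, so the lowest PI175311 root was far above the highest Bloomsdale root. Its log2 fold change of 5.58 had a standard error of 0.80 (limma, Benjamini-Hochberg adjusted p = 0.0138). In leaves Spo21771 stayed at or below 1.60 FPKM in PI175311 and 0.783 FPKM in Bloomsdale. Spo13823, given above among the 6 most abundant, was higher by 2.98 on the log2 scale, with a standard error of 0.41 (adjusted p = 0.012). Without Bloomsdale root 1 or 2 the adjusted p was 0.078 and 0.0546 for Spo21771 and 0.078 and 0.0842 for Spo13823.

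The other 3 genes called higher, named here after their values were seen, were Spo21690, Spo06708 and Spo19590. Spo21690 had 775, 799 and 676 FPKM in PI175311 roots and 276, 261 and 341 FPKM in Bloomsdale roots, with a log2 fold change of 1.36. Spo06708 and Spo19590 had log2 fold changes of 1.32 and 1.03, with adjusted p-values of 0.049 and 0.0459.

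The largest called decreases were those of Spo12242 and Spo04691. Spo12242 had 185, 61.1 and 106 FPKM in PI175311 roots and 1397, 1090.3 and 492 FPKM in Bloomsdale roots, a difference of -3.10 on the log2 scale with a standard error of 0.54 (limma, Benjamini-Hochberg adjusted p = 0.0231), and 0 fragments in every leaf. Spo04691 had 140 (140.4), 94.0 and 30.6 FPKM in PI175311 roots and 591, 659 and 421 FPKM in Bloomsdale roots, a difference of -2.89 with a standard error of 0.57 (adjusted p = 0.0298). For both the groups did not overlap. Without Bloomsdale root 1 or 2 the adjusted p was 0.0983 and 0.123 for Spo12242 and 0.119 and 0.144 for Spo04691. Spo04691 also missed the threshold without Bloomsdale root 3 (adjusted p = 0.0746), with all 12 libraries in one limma fit (adjusted p = 0.112) and with limma-voom on fragments (adjusted p = 0.0506). The other 11 genes called lower had log2 fold changes from -2.80 to -1.06.

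Among the 6 most abundant genes only Spo13823 was called. Spo05786, whose Bloomsdale roots were all above the PI175311 roots, differed by -1.90 on the log2 scale, with a standard error of 0.54 (adjusted p = 0.0671 with limma), and passed with replicate number as a block (adjusted p = 0.0236). Spo26961, at 2.15 (standard error 0.91, adjusted p = 0.158), also passed with the block (adjusted p = 0.0216). Spo02033, Spo23290 and Spo13607 had values of -0.33, 0.68 and -0.49, with adjusted p-values of 0.575, 0.352 and 0.443, which does not show that their levels were equal.

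**Figure D3:**
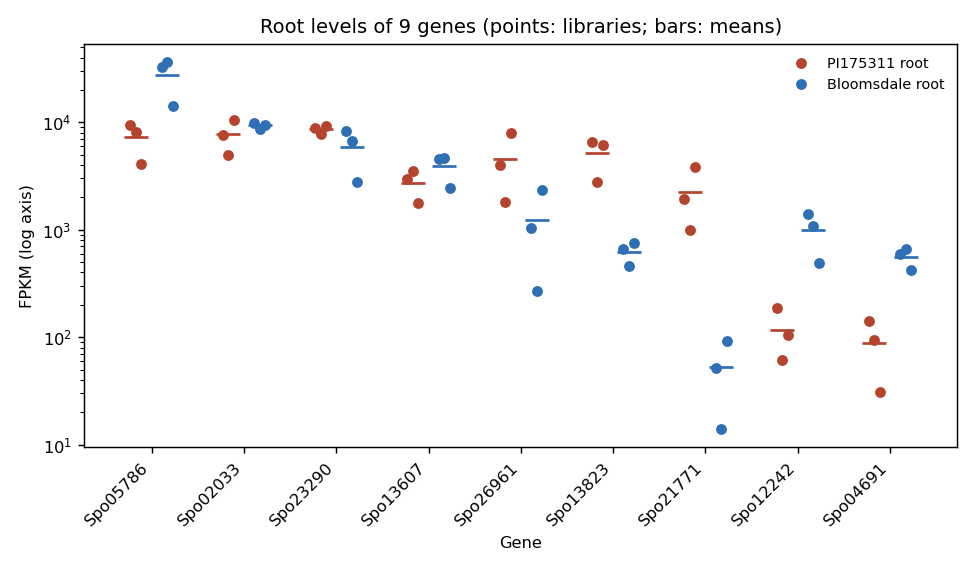
FPKM on a log axis of the 6 most abundant root-predominant genes and of the 2 called higher and 2 called lower with the largest changes (Spo13823 belongs to both sets), in the 3 PI175311 and 3 Bloomsdale roots. Points are libraries in the order of their replicate numbers and bars are means, and the groups of Spo13823, Spo21771, Spo12242 and Spo04691 are clear of each other.

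Beyond the genotypes, the 110 genes differed between plants of 1 genotype more than other abundant root genes did. The SD of log2(FPKM + 0.1) over the 3 roots of PI175311 had a median of 0.68 in the 110 genes (quartiles 0.44 and 1.12) and 0.30 in the other 1854 genes of at least 50 FPKM. In Bloomsdale the medians were 0.49 (quartiles 0.37 and 0.73) and 0.15. An SD above 1 was found in 33 of the 110 genes in PI175311 roots and in 11 in Bloomsdale roots, which are 30% and 10%, against 6.96% and 2.32% of the other 1854. The spread was larger in PI175311 than in Bloomsdale for 75 of the 110 genes. The rule used no measure of spread, and these shares are given as a description.

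**Figure D4:**
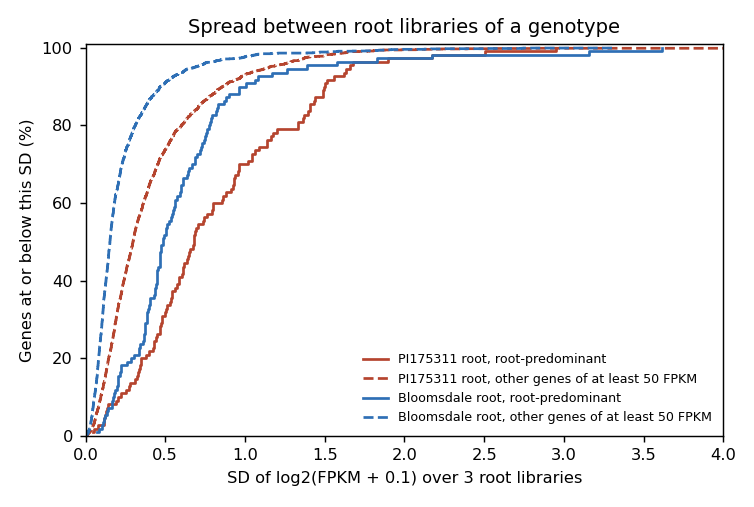
Cumulative share of genes, in percent, by the SD of log2(FPKM + 0.1) over the 3 root libraries of each genotype, for the 110 root-predominant genes (solid) and the 1854 other genes of at least 50 FPKM in both root groups (dashed). The solid lines lie to the right of the dashed line of the same genotype, with medians of 0.68 against 0.30 in PI175311 and 0.49 against 0.15 in Bloomsdale.

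The most variable genes in PI175311 roots were Spo25723, with 26.5, 399 and 7.12 FPKM, and Spo08252, with 89.3, 199 and 7.02 FPKM. In both, replicate 2 was highest and replicate 3 lowest. In Bloomsdale roots the same genes had 30.4, 53.5 and 73.1 FPKM and 87.8, 95.5 and 52.3 FPKM, a far narrower range. The most variable genes in Bloomsdale roots were Spo26705, with 148, 7.64 and 1124 FPKM, and Spo26171, with 453, 21.3 and 1492 FPKM. In PI175311 roots Spo26705 had 167, 37.2 and 759 FPKM and Spo26171 had 1029.5, 759 and 2057 FPKM. In both genes and both genotypes replicate 3 was highest and replicate 2 lowest. Steady genes existed as well. Spo21689 had 135, 142 and 144 FPKM in PI175311 roots and 107, 132 and 132 FPKM in Bloomsdale roots, and Spo05481 had 92.4, 106 and 78.5 FPKM and 109, 98.6 and 100.3 FPKM.

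Roots of the same replicate number tended to deviate together in both genotypes. Over the 110 genes, the deviations of PI175311 and Bloomsdale roots of the same number from their genotype means had correlations of 0.46, 0.37 and 0.50 for numbers 1, 2 and 3. Roots of different numbers had correlations of -0.47 to 0.087. The deviations of the 3 roots of a genotype sum to 0 in each gene. Positive values for the same number thus push the others down, and the others are no separate evidence. The same correlations were 0.27, 0.39 and 0.45 over the other 1854 genes of at least 50 FPKM and 0.25, 0.22 and 0.27 over all tested genes. The 3 roots stood in the same order in both genotypes in 35 of the 110 genes (31.8%), in 28.6% of the other 1854 genes and in 25.4% of all tested genes. The order of Spo26705, with replicate 3 highest and replicate 2 lowest, was found in both genotypes in 9 of the 35 genes, among them Spo26961, Spo26171 and Spo21771. Among the genes with the same order in both genotypes, it was found in 85 of 531 of the other abundant genes and in 702 of 4615 of all tested genes. The sources used here do not say whether a number stands for a day, a tray or an extraction, and what these roots shared was not tested.

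**Figure D5:**
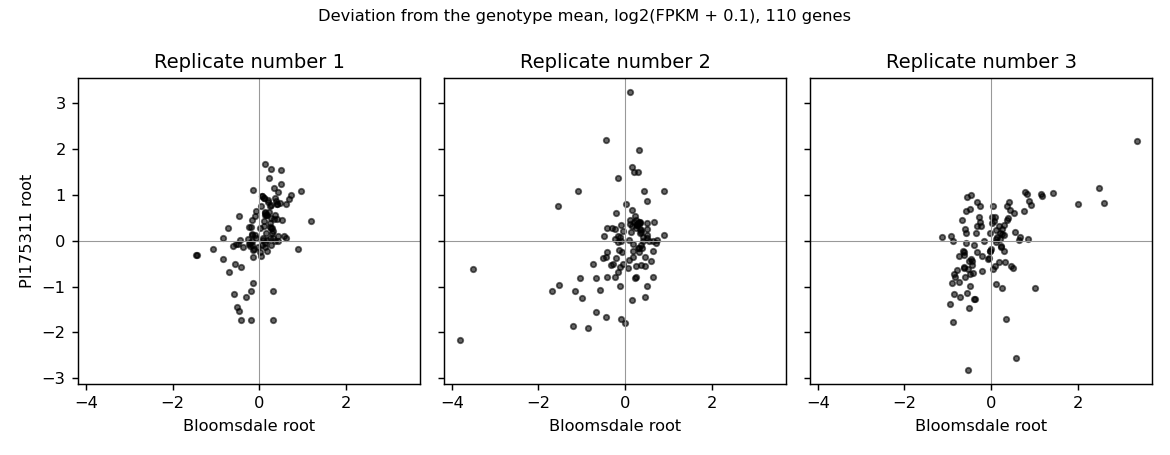
Deviation of each of the 110 genes from its genotype mean, as log2(FPKM + 0.1), in the PI175311 root against the Bloomsdale root of the same replicate number, with 1 panel per number. The points rise from left to right in all 3 panels, with correlations of 0.46, 0.37 and 0.50, and the points at the upper right of panel 3 and lower left of panel 2 include Spo26705.

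The 110 genes were shorter than others. The gene lengths behind the FPKM values, which could be solved from the table, had a median of 960 bases in the 110 genes (range 189 to 4956), 1347.5 in the other 1854 genes of at least 50 FPKM and 1507 in all genes tested in root. Lengths under 1000 bases were found in 59 of the 110 genes (53.6%), in 31.4% of the other 1854 and in 29.4% of all genes tested in root. FPKM are already scaled to this length, and a part of library preparation in the shortest genes was not tested.

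Some of the genes carry neighbouring ID numbers, although the files give no positions. Of the 110, 24 had another of the 110 within 5 ID numbers, in 9 runs of up to 4 genes. That is 21.8%, where the same held for 17.5% of the 137 leaf-predominant genes and 53.8% of the 1854 other abundant root genes, a set many times larger. Over the 6 roots, the 23 such pairs had a median r of 0.67 and the 5972 other pairs 0.060. The runs differed, however. Spo23289 and Spo23290 had r = -0.15, and the run of Spo21687 to Spo21690 had a median r of 0.0097 and a lowest of -0.93. No such values are given here for neighbours outside the 110. The closest pair was Spo09966 and Spo09967, with r = 0.99, whose log2 fold changes were -2.33 (called) and -2.58 (adjusted p = 0.0737 with limma). In the run of Spo12238, Spo12239, Spo12242 and Spo12243, the log2 fold changes were 1.52, 2.05, -3.10 and 3.40, and only Spo12242 was called (adjusted p = 0.195, 0.116 and 0.0594 for the other 3 with limma). Spo12239 had 2481, 418 and 2211 FPKM in PI175311 roots and 518, 236 and 265 FPKM in Bloomsdale roots. Whether such genes share reads as near-identical copies was not tested, and their values are uncertain to that extent.

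In leaf, 28 of the 110 genes passed the filter and could be tested. No gene was called higher in PI175311 (limma, with 5 at an unadjusted p under 0.05 and 0 called by limma-voom on fragments) and 2 were called lower, where 4.04% of the 16764 tested genes were called higher and 6.08% lower. Both called genes passed the filter only through Bloomsdale, so neither their number nor their test carries weight, and their levels are given as a description. Spo10692 had 0 fragments in the 3 PI175311 leaves and 15.3, 6.93 and 3.64 FPKM in Bloomsdale leaves. Spo27131 had 0, 0.245 and 0.0413 FPKM in PI175311 leaves and 1.18, 2.50 and 1.58 FPKM in Bloomsdale leaves. Without any 1 of the Bloomsdale leaves, no gene was called lower, since such fits drop genes that are on only in Bloomsdale. Without Bloomsdale leaf 2, 5 genes were called higher in PI175311, when the share of all tested genes was 6.16%. That fit keeps genes that are on only in PI175311, so this number carries no weight either. In root, Spo10692 had 15.5, 147 and 61.1 FPKM in PI175311 and 319.9, 527 and 466 FPKM in Bloomsdale, with a log2 fold change of -3.04 (adjusted p = 0.0561 with limma).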

How the data were processed

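The authors deposited FPKM for each gene and library. In their methods, the authors give alignment by TopHat v2.0.12 (Bowtie v2.2.3), counting by HTSeq v0.6.1 and testing by DESeq. The processing notes that the authors deposited list HISAT2 2.1.0, fastp, DESeq2 and featureCounts instead. The tool behind the deposited values and the genome build are not given in the sources used here, nor is strand use in counting. Whole fragments, library totals and gene lengths were solved from the digits of the FPKM values. A solution was found for the 21554 genes detected in 6 or more libraries, while fragments of genes seen in fewer libraries may be understated. Replicates were not copies, since the squared differences between their fragments were 32.1 to 279 times the variance of counting noise (chi-square per gene).

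Genotypes were compared within a tissue with limma 3.58.1 (R 4.3.3) on log2(FPKM + 0.1), with trend and robust options, over genes of at least 1 FPKM in at least 3 of 6 libraries, adjusted over all tested genes. Other values came from Python 3.11.15 with numpy 2.4.6 and pandas 2.3.3. Same-numbered roots deviated together over all tested genes (correlations 0.247, 0.216 and 0.273). The labels and methods give no pairing by number, and whether the numbers pair the roots was not tested. The fit reported has no replicate block, and the blocked calls are given beside it. Same-numbered leaves had correlations of 0.056, -0.203 and -0.198, while PI175311 leaf 2 with Bloomsdale leaf 3 had 0.288. Different-numbered roots had -0.187 to -0.046, values that the same-numbered ones push down. What these correlations stand for was not tested, and no pairing is taken from them. P-values set the difference between genotype means against the spread between these plants, with a variance that limma adjusts using all tested genes.

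The genes and comparisons were chosen with earlier results of these data known. Named genes are the 6 highest in root, the 2 called higher and 2 called lower with the largest change, the 2 most variable in the roots of each genotype and the 2 steadiest, the 2 highest in the leaves of each genotype, and those nearest each threshold. A few others are named as examples. Alternatives were other thresholds, pseudocounts, filters, scalings, fits and libraries left out.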

Additional observations from a re-analysis of the deposited data

How the results depend on the processing

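The rule gave 204 genes with a level of 20 FPKM and 60 with 100 FPKM, 153 and 88 with ratios of 20 and 100, 84 after median-of-ratios scaling, and 103 to 108 without 1 replicate number. In root, the genes called higher in PI175311 numbered 3 with no filter, 3 without trend and robust options, 8 with all 12 libraries in one fit, 12 with replicate number as a block and 0 to 9 without 1 library. The shares of all tested genes were, in that order, 2.37%, 2.71%, 3.60%, 3.35% and 0.549% to 2.27%. Those called lower numbered 26 with the block, 1 to 16 without 1 library, and 10 to 18 in the other settings. The shares of all tested genes were 11.3%, 0.238% to 9.92% and 4.20% to 12.3%. In leaf, the genes called higher numbered 1 with 1 FPKM added, quantile normalization, median-of-ratios scaling, a filter on a mean of 5 FPKM or no trend and robust options, 3 with all 12 libraries, 5 with no filter and 0 to 5 without 1 library. The shares of all tested genes were 3.45% to 6.12%, 4.56%, 3.63% and 0.987% to 6.16%. Those called lower in leaf numbered 0 with a filter on a mean of 5 FPKM, 5 with the replicate block and 0 to 4 without 1 library. The shares of all tested genes were 5.03%, 7.56% and 1.48% to 8.72%. Spo23290 in root turned to -0.35 with quantile normalization and was called in neither setting. The cause of these changes was not tested.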
